A study of Mus musculus with 20 samples.

Results

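The comparison set MPP3 against long-term haematopoietic stem cells (LT-HSC) in wild-type (WT) mice, whose Hopx gene is intact. The members were chosen by their labels alone: 4 libraries of WT MPP3 and 4 of WT LT-HSC, together 8 of the 20 libraries in the series. The animals were 8 weeks old, on the C57BL/6 background, and no treatment was named for either group. Both populations were sorted from bone marrow by flow cytometry, and which antigens were used is not stated in the labels. The other libraries were of Hopx knockouts (KO) and of a second progenitor type, MPP2. Of these, 3 KO MPP3 and 3 KO LT-HSC libraries are used below as a separate set in which the same populations were compared. Both are from 8-week-old C57BL/6 animals. The labels name no animal, so the p-values measure only the spread between libraries, which may be partly technical. In the main fit that spread was estimated over all 20 libraries, those of MPP2 included.

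LT-HSC sustain blood formation for the life of an animal and are mostly out of cell cycle. MPP3 are multipotent progenitors that have lost most self-renewal and feed mainly the granulocyte and macrophage lineages. In mouse marrow both carry the receptor Kit and the antigen Sca-1, encoded by Ly6a, and are commonly told apart by CD150 (gene Slamf1) on stem cells and CD48 on progenitors. Stem cells also share many transcripts with megakaryocytes, the cells that shed platelets. Progenitors start to transcribe genes of several later lineages at low levels before they commit to one, which is known as lineage priming.

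Normalized counts are the deposited values, each read count divided by one factor per library. A log2 difference is the mean log2(normalized count + 1) in MPP3 minus that in LT-HSC, so positive values are higher in MPP3. A gene was called where limma's adjusted p was under 0.05. On this scale 17160 genes were tested and 681 were called, 3.97% of them, with 257 higher (1.5%) and 424 lower (2.47%) in MPP3. The libraries of the populations did not overlap in 648 of the called genes, 3.78% of those tested, and in 1858 (10.8%) of all tested genes. The median log2 difference over all tested genes was -0.03. Library totals ran from 11163345 to 14711129 reads in genes in WT MPP3 and from 12475841 to 14647699 in WT LT-HSC. WT MPP3 3 stood apart from the other libraries: 15826 genes had a read there, against 18069 to 20831 in the other WT MPP3 libraries, and mitochondrial transcripts made up 1.62% of its reads in genes. Without it 576 genes were called. The library WT MPP3 2 had the most genes with a read and a mitochondrial share of 4.77%, and without it 713 were called. Without WT LT-HSC 4, the one library with no Hopx read, limma called 444. Xist was high in WT MPP3 2 and WT LT-HSC 3 and near 0 in the other 6 libraries, so each population held 1 library from a female by this transcript. Hopx itself was 23.2, 42.7, 30.3 and 11.7 normalized counts in WT MPP3 and 30.2, 58.9, 37.1 and 0 in WT LT-HSC. The groups overlapped and the gene was not called (log2 0.64, 95% interval -1.46 to 2.74, limma adjusted p = 0.893).

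Slamf1 and Cd48, the genes of the antigens named above, differed in the direction of the labels. Slamf1 was 1225, 971, 931 and 821 normalized counts in the 4 LT-HSC libraries and 10.1, 20.1, 0 and 21.6 in the 4 MPP3 libraries. Cd48, a ligand-binding protein of the same family, was 83.3, 324, 193 and 84.8 in LT-HSC and 6726, 7860.2, 6574 and 6148 in MPP3. For both genes the populations lay far apart in every library, and a sort on their proteins would select for this. Flt3, the receptor of a cytokine that supports early lymphoid and dendritic progenitors, was 214, 166, 863 and 713 in LT-HSC and 6518, 13242, 6762 and 8525 in MPP3. Cd34, a sialomucin of progenitors, was 3265, 2244, 6067 and 3532 and 15282, 20986, 19030.0 and 15894. Flt3 and Cd34 did not overlap between the populations either, and both were called. Flt3 also served here as a marker of lymphoid-primed progenitors, and the part of such cells in the MPP3 libraries was not tested. The stem and progenitor antigens that define the common gate overlapped between the populations. Kit ran from 2892 to 4781 in LT-HSC and from 1749 to 3735 in MPP3, and Ly6a from 1472 to 3741 and from 962 to 3572, and neither was called, with 95% intervals of the log2 difference of -0.97 to -0.01 for Kit and -2.24 to 1.12 for Ly6a.

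**Figure D1:**
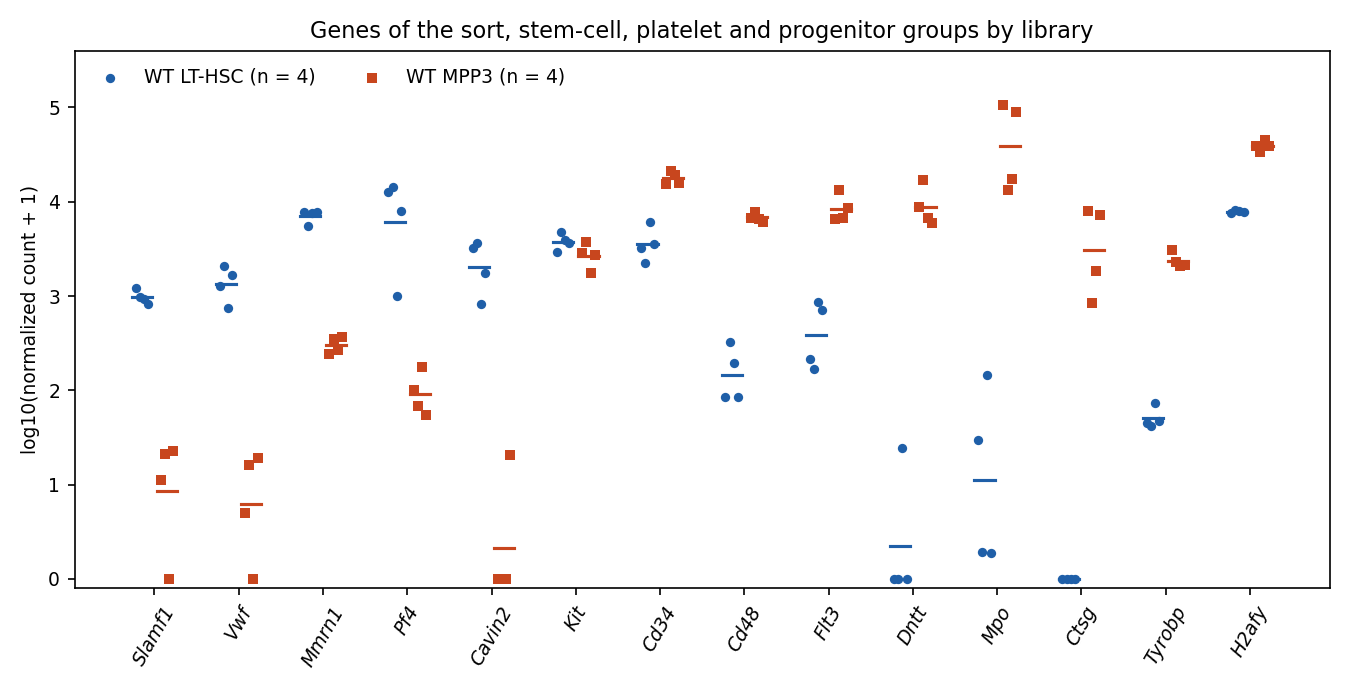
Normalized counts of 14 genes in each library on a log10(normalized count + 1) axis, with blue circles for the 4 WT LT-HSC and orange squares for the 4 WT MPP3 libraries and a bar at each group's mean on this axis. Slamf1, Vwf, Mmrn1, Pf4 and Cavin2 lie higher in every LT-HSC library, Kit overlaps between the populations, and the 8 genes from Cd34 to H2afy lie higher in every MPP3 library.

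Among 20 genes listed as regulators and receptors shared by stem cells and progenitors, 5 were called higher and 2 lower, and the median log2 difference was 0.08. The list includes Cd48 and Cd34, named above as genes of progenitors. Runx1 and Myb, which both populations need, had intervals of -0.69 to 0.49 and -0.03 to 0.83. Higher in MPP3 beside Cd34 and Cd48 were Spi1, the myeloid and lymphoid factor PU.1 (1.29), the HMG-box factor Sox4 (1.31) and the surface protein gene Ly6e (0.55). Lower were the ETS factor Fli1, at 5774, 3813, 3077 and 3823 in LT-HSC and 1404, 2338, 1704 and 1774 in MPP3 (log2 -1.18, SE 0.23, limma adjusted p = 0.0061), and its partner Tal1 (log2 -1.01, SE 0.23, limma adjusted p = 0.0169). Spi1 lost its call in 8 of 22 alternative analyses, Ly6e in 10 of 22 and Tal1 in 5 of 22. Sox4 lost it in 4 of 22 and Cd34 in 2 of 22, among them that without WT LT-HSC 2. Fli1 and Cd48 kept their calls in all alternatives. Over the alternatives the number called higher ran from 1 to 7. It was 2 without WT LT-HSC 1, WT LT-HSC 2 or WT MPP3 1, and 3 without WT LT-HSC 4.

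Of 21 tested stem-cell transcription regulators, 10 were called lower in MPP3 and 0 higher, and all 21 had a negative difference (median -1.79). Meis1, a homeodomain cofactor of Hox proteins, was 7560.5, 7351, 7175 and 6995 in LT-HSC and 2930.2, 4845, 3344 and 2401 in MPP3 (log2 -1.15, SE 0.20, limma adjusted p = 0.00249), with no overlap between the groups. Gata2, a zinc-finger factor needed to keep stem cells, was 4343, 5239.7, 4098 and 5407 in LT-HSC and 1307, 1229, 2614 and 1257 in MPP3 (log2 -1.64, SE 0.28, limma adjusted p = 0.00193). Mecom, whose product Evi1 maintains quiescent stem cells, was 738, 1433, 1637 and 906 and 189, 423, 114 and 82.1 (log2 -2.75, SE 0.58, limma adjusted p = 0.00976). Mllt3, a chromatin reader that sustains stem cells, differed by -2.32 (SE 0.42, limma adjusted p = 0.00276). Meis1, Gata2 and Mecom kept their calls in all alternatives.

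Other regulators named for stem cells were not called. Hlf, a leucine-zipper factor used as a stem-cell marker, was 1199.8, 1837, 3538 and 1557 in LT-HSC and 823, 2833, 740.4 and 662 in MPP3. The groups overlapped because WT MPP3 2 lay at 2833, inside the LT-HSC range, and the gene was not called (log2 -0.85, SE 0.65, limma adjusted p = 0.666). Hoxa9 differed by -0.03, with an interval of -0.81 to 0.74, and Prdm16 by -0.82, with an interval of -2.12 to 0.48. Nupr1 and Ndn, which restrain cycling in stem cells, had the largest differences of the list (-6.22 and -6.04). Ndn lost its call in 6 of 22 alternatives, among them that without WT MPP3 3, the library where it was 0. Without the 3 libraries with S100a8 above 1000 normalized counts, described below, 6 members of this list were called.

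Of 16 tested genes on a list of surface and other markers of stem cells, 8 were called lower in MPP3 and 0 higher, with a median of -2.51. Esam, a junction protein shared with endothelium, was 2713, 2304, 2398 and 2955 in LT-HSC and 161, 339, 490.0 and 206 in MPP3 (log2 -3.24, SE 0.41, limma adjusted p = 0.000184). Tek, the receptor Tie2 for angiopoietins, was 535, 697, 747 and 822 and 97.8, 66.6, 8.91 and 68.5 (log2 -3.90, SE 0.62, limma adjusted p = 0.00103). Cd9, a tetraspanin, was 4118, 4930.1, 3346 and 3850.4 and 555, 1052, 506 and 565 (log2 -2.65, SE 0.35, limma adjusted p = 0.000268). All 3 genes separated the populations in every library. Procr, the protein C receptor often used to purify stem cells, was not called although its groups did not overlap. It was 605, 935, 1267 and 995 in LT-HSC and 150.3, 319, 108 and 188 in MPP3 (log2 -2.37, 95% interval -4.94 to 0.19). In WT MPP2, which enters the fit's estimate of the spread, it was 0, 0 and 182, and the part of these values in the missing call was not tested separately. Procr was called lower in 3 of 22 alternatives. Fgd5, another stem-cell marker, was 174, 304, 247 and 472 in LT-HSC and 9.08, 56.5, 257 and 56.8 in MPP3, where library 3 lay within the LT-HSC range. With edgeR, or without WT LT-HSC 3 or WT LT-HSC 4, 5 members were called lower.

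Megakaryocyte and platelet genes had the lowest median of all 35 lists, -3.89. Of 23 tested members 13 were called lower in MPP3 and 0 higher, and over the alternatives the count ran from 8 to 17, lowest with voom weights. The summed normalized counts of the list were 33888 to 57103 in LT-HSC and 7000.0 to 13229 in MPP3. In bulk samples, fewer cells with a transcript and less of it per cell cannot be told apart. Mmrn1, the granule protein multimerin, had the smallest p of all genes. It was 7826, 5582, 7618 and 7741 in LT-HSC and 240.1, 346, 268 and 364 in MPP3 (log2 -4.56, SE 0.30, limma adjusted p = 1.98e-07). Gp9, a subunit of the platelet receptor for von Willebrand factor, was 975, 1090.1, 1043 and 1004 and 72.6, 85.4, 53.5 and 59.5 (log2 -3.93, SE 0.32, limma adjusted p = 2.04e-06). F2r, the thrombin receptor, fell by 3.69 (SE 0.50, limma adjusted p = 0.000275).

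Some platelet genes varied among the stem-cell libraries themselves. Pf4, the chemokine platelet factor 4, was 12589.5, 14202, 990.0 and 8049 in WT LT-HSC and 101, 67.8, 174 and 54.1 in MPP3 (log2 -6.08, SE 1.03, limma adjusted p = 0.00183). WT LT-HSC 3 was far the lowest of the stem-cell libraries and still above every MPP3 library. Itga2b, the integrin subunit CD41, was 3548, 4429.7, 751 and 4814 in LT-HSC and 393, 297, 1824 and 303 in MPP3. Here WT LT-HSC 3 fell below WT MPP3 3, the groups overlapped and the gene was not called (log2 -2.44, SE 0.69, limma adjusted p = 0.0575). Its partner Itgb3 was 705, 579, 367 and 869 and 21.2, 42.7, 47.2 and 60.4, with no overlap (log2 -3.87, SE 0.60, limma adjusted p = 0.000922). Vwf, the adhesive ligand of the Gp9 complex, was also lowest in WT LT-HSC 3 at 753 and ran from 0 to 18 in MPP3. The red-cell gene Car1 was 3082 in WT LT-HSC 3 and at most 18 in the other WT LT-HSC libraries, and its part in these values was not tested.

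The promoters of 3 called genes, each among the first 3 entries of the platelet, granule or early lymphoid list, are shown as examples: Pf4, which was lower in MPP3, and Mpo and Dntt, which were higher. Each is the 250 bases before the RefSeq start site (GRCm38.p6), on the plus strand. Matches on either strand to 4 motifs of blood-cell factors are in capitals: AGATAA for GATA factors, GAGGAAG for PU.1, TGTGGT for RUNX factors and TTGCNNAA for C/EBP factors. None of the printed matches overlap.
Pf4 (chr5:90772185-90772434): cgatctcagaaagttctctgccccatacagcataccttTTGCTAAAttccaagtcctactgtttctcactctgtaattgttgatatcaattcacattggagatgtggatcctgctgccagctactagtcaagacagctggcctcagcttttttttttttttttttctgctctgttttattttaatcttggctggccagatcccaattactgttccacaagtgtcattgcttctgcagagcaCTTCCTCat
Mpo (chr11:87793534-87793783): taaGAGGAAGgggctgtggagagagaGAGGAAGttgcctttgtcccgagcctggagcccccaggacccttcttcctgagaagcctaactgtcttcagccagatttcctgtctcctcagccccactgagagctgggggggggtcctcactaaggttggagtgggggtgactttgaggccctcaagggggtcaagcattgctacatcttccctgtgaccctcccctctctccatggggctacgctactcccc
Dntt (chr19:41029025-41029274): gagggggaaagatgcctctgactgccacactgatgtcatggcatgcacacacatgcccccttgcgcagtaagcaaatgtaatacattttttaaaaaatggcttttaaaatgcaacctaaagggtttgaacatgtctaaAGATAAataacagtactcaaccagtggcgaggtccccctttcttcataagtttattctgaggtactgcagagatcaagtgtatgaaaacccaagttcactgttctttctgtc

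The Mpo window held 2 PU.1 matches, which begin 247 and 224 bases before the start site, and no match to the other motifs. In the Dntt window the one match was to the GATA motif, 112 bases before the start. The Pf4 window held a C/EBP match at 212 bases and a PU.1 match, on the other strand, at 9 bases before the start. The PU.1 letters stood in 10.4% of the same windows of 27025 genes, in 11% of 11006 tested genes, in 17.8% of 157 genes called higher in MPP3 and in 10.2% of 295 called lower. For the RUNX letters the shares of all, tested, higher and lower genes were 14.2, 11.1, 19.1 and 8.47%. For GATA they were 10.3, 6.26, 10.8 and 10.2%, and for C/EBP 9.55, 7.48, 10.2 and 7.12%. The shares describe letters in a window and were not tested.

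Of 13 tested caveola and membrane-recycling genes, 6 were called lower in MPP3 and 0 higher, with a median of -2.51, and 3 of the 7 others had a positive difference. All 3 measured cavins, the coat proteins of caveolae, were among them. Cavin1 was 1671, 1546, 1072 and 1901 in LT-HSC and 111, 216, 146 and 241 in MPP3 (log2 -3.14, SE 0.36, limma adjusted p = 6.76e-05). Cavin2 was 3249, 3673, 826 and 1740.0 in LT-HSC and had reads in a single MPP3 library, WT MPP3 4, at 19.8. Cavin3 was 724, 1222, 1007 and 1051 and 140.2, 81.7, 244 and 157 (log2 -2.76, SE 0.35, limma adjusted p = 0.000184). The caveolins that the coat surrounds were not called: Cav1 had too few reads to be tested, and Cav2 was 476, 588, 689.7 and 277 in LT-HSC and 409, 227, 143 and 88.4 in MPP3, with overlap (log2 -1.37, SE 0.64, limma adjusted p = 0.342). Ehd3, a membrane-scission ATPase, was called lower (-6.64), while its relatives Ehd1 and Ehd4 had intervals of -0.58 to 0.98 and -0.65 to 0.72. Tgm2, a transglutaminase, was 1576, 1545, 1634 and 1974 in LT-HSC and 22.2, 13.8, 0 and 91.1 in MPP3.

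Primary granule genes, which load the first granules of granulocyte precursors, were higher in MPP3 in 7 of 15 tested members, with 0 lower and a median of 2.29. The list's summed counts were 40541 to 52058 in LT-HSC and 91626 to 222956 in MPP3. Mpo, myeloperoxidase, was 28.4, 0.95, 143 and 0.892 in LT-HSC and 106387, 13394, 17304 and 90037 in MPP3. Ctsg, the protease cathepsin G, had 0 reads in all 4 LT-HSC libraries and was 8038, 844, 1851 and 7238 in MPP3, at least 6275-fold higher if the LT-HSC group is set to the floor of 3 counts over its libraries. The call of each was lost with voom weights. Cst7, an inhibitor of cathepsins, was 24.7, 54.1, 23.3 and 13.4 in LT-HSC and 2436, 1010.2, 1452 and 1853 in MPP3 (log2 5.92, SE 0.91, limma adjusted p = 0.000865). Plac8, a small protein of myeloid cells, was 761, 902, 3109 and 804 and 30322, 20606, 13193 and 21697 (log2 4.17, SE 0.54, limma adjusted p = 0.000216). Cst7 and Plac8 kept their calls in all alternatives. Nkg7, a granule membrane protein, and Serpinb1a, an elastase inhibitor, were already at 1837 to 3248 and 1819 to 2109 in LT-HSC and differed by 1.48 and 1.69. Per kilobase of exon, Mpo had a mean level of 16583 and Plac8 of 13476 normalized counts in MPP3, where Kit had 311.

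The 4 MPP3 libraries fell into pairs in part of this list. Elane, neutrophil elastase, was 9331, 2.51, 51.7 and 8221 in WT MPP3 and 21.1, 0, 8.49 and 0 in WT LT-HSC. Prtn3, proteinase 3, was 8508, 3825, 4071 and 9817 and 931, 1428, 2904 and 2342. WT MPP3 1 and 4 had the highest values of both genes, while WT MPP3 2 and 3 had little Elane and lower Prtn3, and neither gene was called (Elane log2 6.50, SE 3.01, limma adjusted p = 0.338; Prtn3 log2 1.79, SE 0.62, limma adjusted p = 0.142). Red-cell genes split the same libraries. Car1, carbonic anhydrase 1, was 19904, 0, 0 and 14105, and Klf1, the master regulator of red-cell genes, was 2111, 8.8, 0 and 1041. Gata1, the factor of red-cell and megakaryocyte fate, was 1256, 12.6, 0 and 634 in MPP3 against 2419, 1375, 506 and 1467 in LT-HSC, and Epor, the erythropoietin receptor, was 687, 0, 0.891 and 258 against 430.5, 495, 202 and 348. Of 17 tested red-cell genes 0 were called in either direction on all libraries, and without WT MPP3 1 the number called lower was 2. The list's summed level was 11633 to 64603 in MPP3 and 29242 to 50202 in LT-HSC.

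Transcripts of mature neutrophils ran opposite to this split. S100a8, a subunit of the alarmin calprotectin, was 127, 10521, 9036 and 33.4 in WT MPP3 and 1.83, 6728, 74.3 and 285 in WT LT-HSC, and its partner S100a9 was 46.4, 5700.4, 7238 and 22.5 and 96.2, 6423, 40.3 and 179. WT MPP3 2, WT MPP3 3 and WT LT-HSC 2 were the libraries above 1000. Ngp, of secondary granules, was 4482 in WT MPP3 2, 706 in WT LT-HSC 2 and 0 in WT MPP3 3. Of 13 tested neutrophil genes 0 were called, and the list summed to 911 to 29142 in MPP3 and 358 to 17822 in LT-HSC. In the 3 KO MPP3 libraries Elane was 7804, 16051 and 6702, Car1 was 13323, 21953 and 10424 and Klf1 was 2059, 1497 and 515, in every library above WT MPP3 2 and 3, and S100a8 was 21, 141 and 89.9. Without WT MPP3 2, WT MPP3 3 and WT LT-HSC 2, chosen after the data were seen, 311 genes were called. Of the lists described below, 2 adhesion genes were then higher, and 1 gene each of the TGF-beta and detoxification lists was lower.

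**Figure D2:**
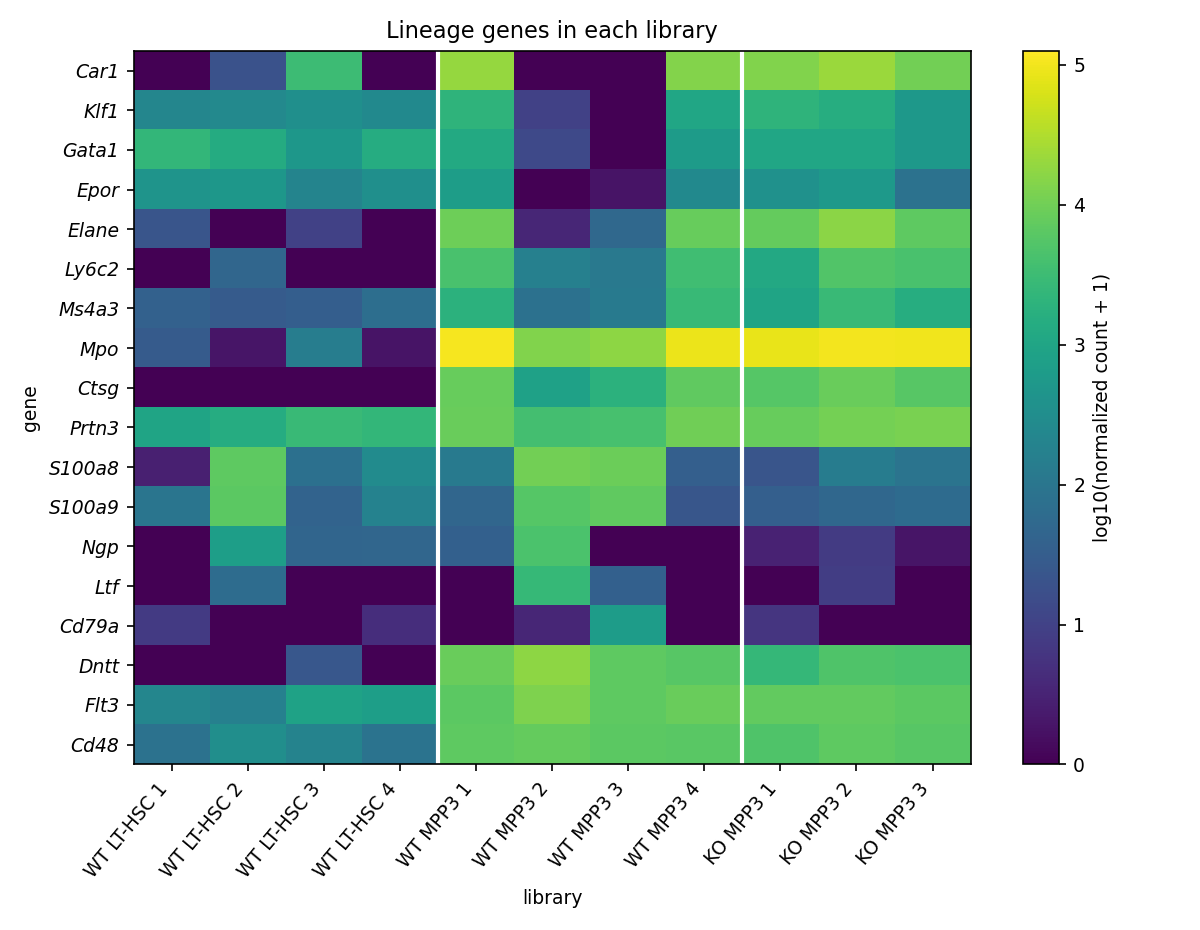
Colour map of log10(normalized count + 1) for 18 lineage genes (vertical) in the 4 WT LT-HSC, 4 WT MPP3 and 3 KO MPP3 libraries (horizontal). WT MPP3 2 and 3 lack or nearly lack Car1, Klf1, Gata1, Epor and Elane and carry S100a8 and S100a9, while WT MPP3 1 and 4 and the KO MPP3 libraries show the reverse, and Dntt, Flt3 and Cd48 are high in all 7 MPP3 libraries.

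Myeloid surface genes had the highest median of the lists, 2.87, with 11 of 26 tested members called higher and 0 lower. Tyrobp, an adaptor of activating receptors, was 44, 40.8, 72.2 and 46.4 in LT-HSC and 3087, 2307, 2090.2 and 2139 in MPP3 (log2 5.56, SE 0.61, limma adjusted p = 4.51e-05). Cd53, a leukocyte tetraspanin, was 173, 32.3, 422 and 166 and 7414, 10407, 4821 and 7224 (log2 5.66, SE 0.88, limma adjusted p = 0.000956). Both separated the populations by more than an order of magnitude in every library. Cx3cr1, the fractalkine receptor of monocytes, had 0 reads in LT-HSC and was 435, 46.5, 57 and 129.8 in MPP3, at least 233-fold higher. Csf1r, the receptor of macrophage colony-stimulating factor, was 68.7, 172, 173 and 111 and 652, 188, 488 and 1082 (log2 2.03, SE 0.53, limma adjusted p = 0.0354). The call of Csf1r was lost in 11 of 22 alternatives, and the list's count ran from 4 to 15, lowest with edgeR on 18 libraries. Without WT LT-HSC 1, without WT LT-HSC 4, or without the 3 libraries with high S100a8, it was 7.

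Among 17 myeloid transcription factors 3 were called higher and 1 lower. Cebpa, which starts the granulocyte programme, was 12.8, 7.6, 14.9 and 0 in LT-HSC and 105, 52.8, 285 and 244 in MPP3 (log2 4.42, SE 0.93, limma adjusted p = 0.00907). Irf8, a factor of monocyte and dendritic fate, was 177, 19, 97.6 and 109 and 2821, 1145, 1516 and 2769 (log2 4.61, SE 1.10, limma adjusted p = 0.0208). Spi1, given above, was the third. WT MPP3 1 and 4 had the highest Irf8, and without either of them 1 member of the list was called higher. Without WT MPP3 2, WT MPP3 3 and WT LT-HSC 2, and with edgeR on 18 libraries, 0 were. Mycn, a Myc-family factor, was 2773, 2905, 4134 and 2386 in LT-HSC and 442, 1033, 368 and 303 in MPP3 (log2 -2.65, SE 0.41, limma adjusted p = 0.000957) and kept its call in all alternatives. Cebpb had an interval of -2.19 to 2.60.

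Early lymphoid genes were higher in 10 of 23 tested members, with 0 lower and a median of 2.17. Dntt, the terminal transferase of antigen-receptor joining, was 0, 0, 23.3 and 0 in LT-HSC and 8698, 16951, 6714 and 5950.4 in MPP3. Satb1, a chromatin organizer of lymphoid genes, was 8.24, 41.8, 102 and 35.7 and 2527, 3909, 2754 and 2669 (log2 6.38, SE 1.37, limma adjusted p = 0.0107). Both were high in all 4 MPP3 libraries, with no split like that of Elane. Il7r, the interleukin 7 receptor, was 0, 0, 3.18 and 0 in LT-HSC and 439.8, 319, 47.2 and 161 in MPP3 (log2 6.99, SE 1.37, limma adjusted p = 0.00551). Rag2, a subunit of the recombinase, had 0 reads in LT-HSC and was 401, 746, 388 and 193 in MPP3, at least 603-fold higher. Its partner Rag1 was 8.07, 17.6, 0 and 32.5 in MPP3 and 0 in LT-HSC and was not called (log2 3.12, SE 1.28, limma adjusted p = 0.252). Without WT MPP3 2, WT MPP3 3 and WT LT-HSC 2 the list's count was 1, and Dntt, Satb1, Il7r and Rag2 were among the genes whose calls were lost.

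Markers of mature lymphocytes differed between genes and libraries. Ighm, which encodes the constant region of IgM, was 6.41, 0, 13.8 and 3.57 in LT-HSC and 5199.8, 8172, 6305 and 3992 in MPP3 and was the 1 called gene among 10 tested of the B-lineage list. Its call was lost in 4 of 21 alternatives, including edgeR and voom. Cd79a, a signalling subunit of the B-cell receptor, was 0, 2.51, 649.5 and 0 in MPP3 and 6.41, 0, 0 and 3.57 in LT-HSC. Cd79b was 696, 1181, 1415 and 748 in MPP3 and 693, 737, 866 and 695 in LT-HSC, and was not called. The B-lineage list summed to 5965, 9499, 13439 and 4785 in MPP3 and 779 to 945 in LT-HSC. WT MPP3 3 had the highest sum, Cd79a and Cd79b, and the part of B cells in that library was not tested. T and natural killer genes summed to 27.6 to 529 and 58.9 to 192, with Cd3e at 0 in all 8 libraries and 0 of 6 tested members called.

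Genes of other marrow cells gave a few calls. Of 14 dendritic genes, Irf8 and Xcr1, a chemokine receptor of cross-presenting cells, were called higher. Xcr1 was 68.6, 234, 34.7 and 133 in MPP3 and had 0 reads in LT-HSC, at least 164-fold higher. Of 8 mast cell and basophil genes 2 were higher: Mcpt8, a basophil protease, was 260.2, 107, 82 and 1087 in MPP3 with 0 reads in LT-HSC (at least 536-fold), and Cpa3, a mast cell carboxypeptidase, was 294, 19, 119.9 and 176 in LT-HSC and 3782, 729, 2805 and 1185 in MPP3 (log2 4.04, SE 0.80, limma adjusted p = 0.00576). That list summed to 991 to 4948 in MPP3 and 218 to 797 in LT-HSC. Macrophage genes summed to 477 to 842 and 547 to 630.1, with 0 of 9 called and C1qa at most 41. Stromal and vessel-wall genes summed to 309 to 503 and 137 to 315. Of these, the receptor gene Pdgfrb was higher in MPP3, at 1.83, 6.65, 53.1 and 14.3 in LT-HSC and 363, 396, 308 and 368 in MPP3, and Kdr, a receptor for vascular growth factor, was lower, at 175, 77.9, 125 and 59.8 and 0, 2.51, 0 and 3.61. Kdr was not called without WT LT-HSC 1, WT LT-HSC 3, WT MPP3 1 or WT MPP3 3. The part of such cells in the other results was not tested.

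**Figure D3:**
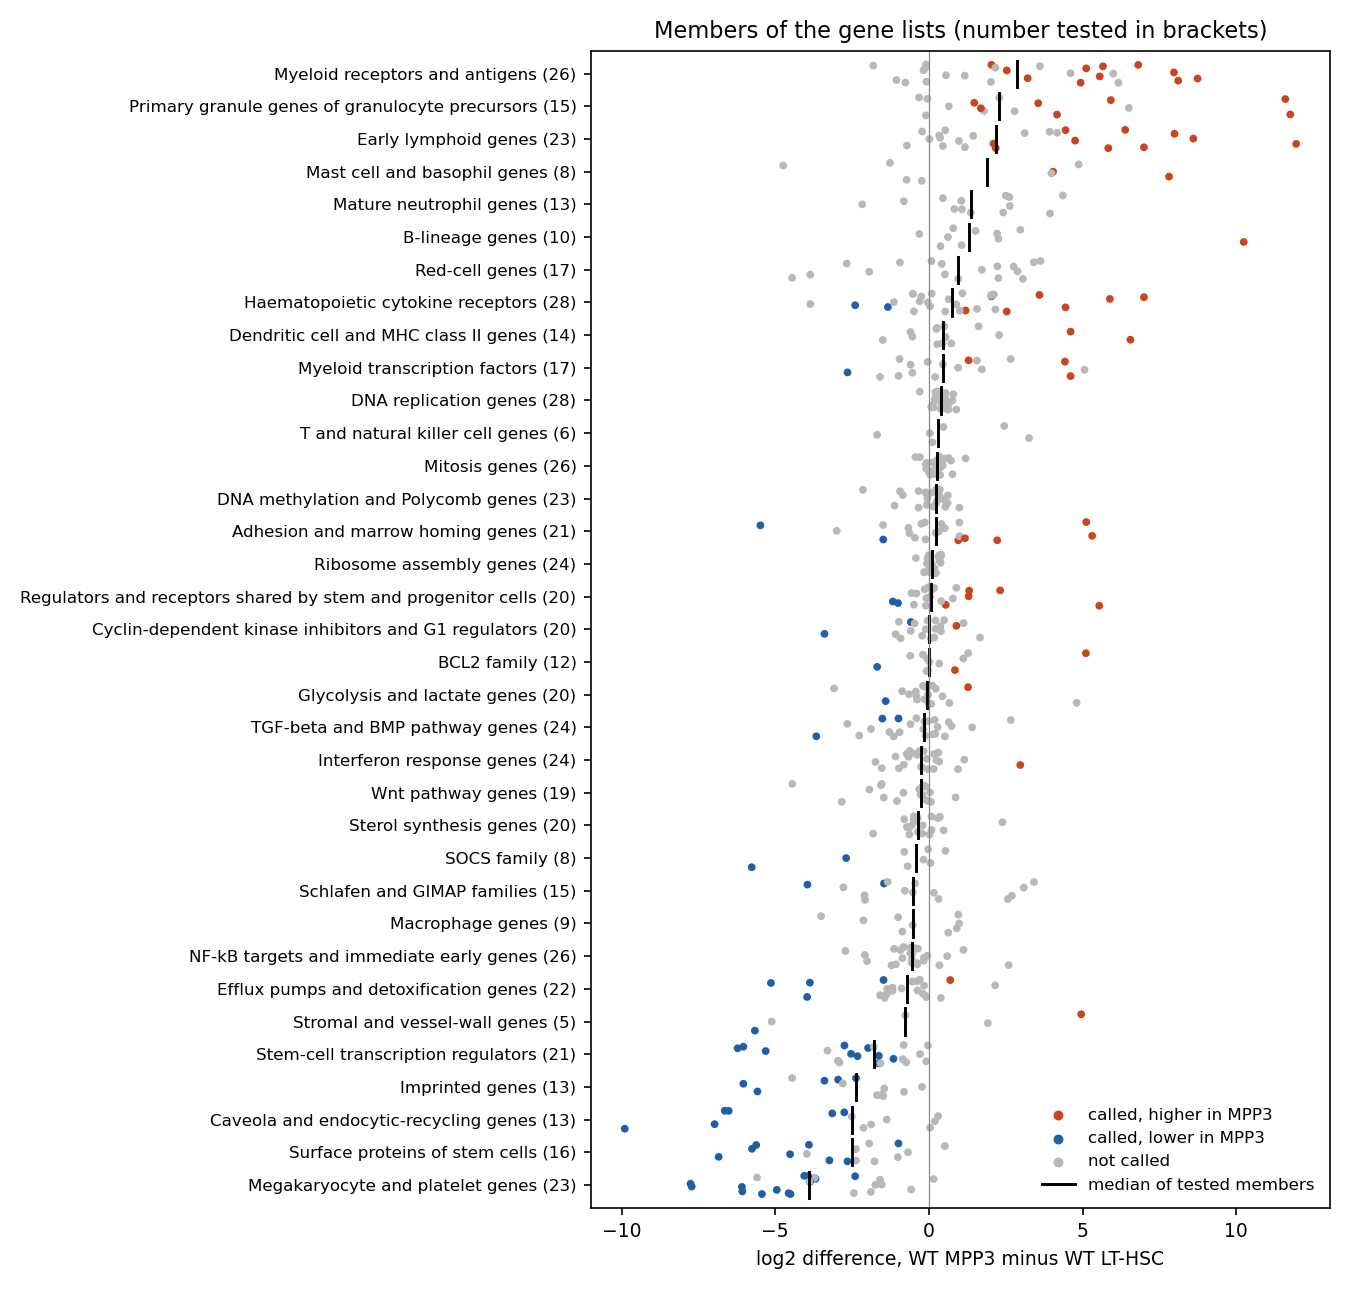
Log2 difference between WT MPP3 and WT LT-HSC (horizontal) of each tested member of the 35 gene lists (vertical, ordered by median, number tested in brackets), with called genes in colour and a black bar at the median. The platelet, stem-surface and caveola lists lie lowest, the myeloid surface, granule and lymphoid lists highest, and the replication, mitosis and ribosome lists lie close to 0 with no called member.

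Receptors for blood-cell cytokines changed in both directions. Of 28 tested, 7 were higher and 2 lower in MPP3. Beside Flt3, Il7r and Csf1r, Il1r1, the receptor of interleukin 1, was 48.5, 35.1, 164 and 53.5 in LT-HSC and 451, 1417, 641 and 834 in MPP3 (log2 3.59, SE 0.75, limma adjusted p = 0.00862). Il10ra, of the interleukin 10 receptor, was 0, 2.85, 24.4 and 0 and 225, 313, 61.5 and 269 (log2 5.89, SE 1.30, limma adjusted p = 0.0136), and Ifnar2, of the type I interferon receptor, was 844, 724, 1139 and 911 and 1869, 2035, 2123 and 2147 (log2 1.19, SE 0.24, limma adjusted p = 0.00762). Csf2rb, the shared chain of the receptors for interleukins 3 and 5, was the other, and lost its call in 12 of 22 alternatives. Il15ra, of the interleukin 15 receptor, was among the lower ones, at 754, 677, 941 and 799 in LT-HSC and 307, 482, 202 and 313 in MPP3. Without WT LT-HSC 4 the number called higher was 4, and without the 3 libraries with high S100a8 it was 1. Genes that damp cytokine signals differed within their family: Socs2 was 685, 774, 702 and 671 in LT-HSC and 21.2, 70.4, 0 and 17.1 in MPP3, and Cish was 1473, 1101, 2035 and 2432 and 297, 329, 193 and 239.9 (log2 -2.69, SE 0.50, limma adjusted p = 0.00358). The other 6 tested members were not called, with Socs3 at an interval of -1.81 to 2.88.

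Of 20 tested cyclin-dependent kinase inhibitors and G1 regulators, 1 was called higher and 2 lower, where 3.97% of all tested genes were called. Cdkn1c, the inhibitor p57 of resting stem cells, was 508, 752, 434 and 421 in LT-HSC and 18.2, 35.2, 201 and 39.7 in MPP3 (log2 -3.40, SE 0.59, limma adjusted p = 0.00237). Cdk6, a kinase that speeds exit from quiescence, was 7207, 6055, 4739 and 7261 and 10933, 11780.3, 10721 and 12967 (log2 0.89, SE 0.14, limma adjusted p = 0.000952), and the cyclin gene Ccnd2 was 7054, 9064, 8834 and 9346 and 5128, 6701, 5630.0 and 5330.1 (log2 -0.59, SE 0.13, limma adjusted p = 0.0101). In each the populations did not overlap. Of 28 replication genes 0 were called, 27 had a positive difference and the median was 0.40, where the median of all tested genes was -0.03. The 95% interval lay between -1 and 1 in 18 of them. Of 26 mitosis genes 0 were called, with a median of 0.25 and 8 intervals inside those bounds. Mki67 was 2619, 2276, 1213 and 1397 in LT-HSC and 2621, 1364, 2186 and 2789 in MPP3, and Top2a was 5834, 3549, 2202 and 2938 and 6661, 3399.9, 6508 and 6632, with overlap in both. WT MPP3 2 had the lowest values of both genes among the MPP3 libraries, and without it 2 replication genes and 2 mitosis genes were called higher.

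Calls among genes of growth and energy supply are given beside the 3.97% called among all tested genes. Of 24 ribosome assembly genes 0 were called and 21 had intervals between -1 and 1, as had 5598 of all tested genes (32.6%). Of 20 glycolysis and lactate genes, the mutase Pgam1 was higher (log2 1.27, SE 0.33, limma adjusted p = 0.0318) and the glucose transporter Slc2a3 lower (log2 -1.41, SE 0.32, limma adjusted p = 0.0156). Pgam1 lost its call in 13 of 22 alternatives, and Slc2a3 without WT MPP3 1 or WT LT-HSC 4. Sterol synthesis genes gave 0 calls of 20 with a median of -0.36, and genes of DNA methylation and Polycomb complexes 0 of 23. Detoxification genes gave 4 lower and 1 higher of 22, and 2 lower without any 1 of the LT-HSC libraries or WT MPP3 3. Abcg2, the dye-efflux pump of stem cells, was 2891, 2799, 3456 and 2772 in LT-HSC and 1244, 1362, 816 and 934 in MPP3 (log2 -1.48, SE 0.27, limma adjusted p = 0.00349). Aldh1a1, an aldehyde dehydrogenase, was 1896, 1552, 1681 and 1730.2 and 253, 30.2, 105 and 172 (log2 -3.96, SE 0.57, limma adjusted p = 0.000462). The glutathione enzyme Gpx1 was the higher gene (0.69), and Abcb1a and Gstt1, the other 2 lower ones, lost their calls in 12 of 21 and 9 of 21 alternatives.

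Adhesion and homing genes gave 5 higher and 2 lower of 21 tested. Itgal, the integrin subunit of LFA-1, was 21.1, 47.5, 62.6 and 0 in LT-HSC and 508, 813, 575 and 702 in MPP3 (log2 5.31, SE 0.95, limma adjusted p = 0.00276). Selplg, the selectin ligand, was 1666, 2261, 2864 and 2086 and 5606, 5326, 4283 and 4533 (log2 1.17, SE 0.20, limma adjusted p = 0.00176), and Itgb7 and Cd44 were higher as well (2.22 and 0.95). Itga6, a laminin receptor subunit, was 1544, 1501, 1336 and 808 in LT-HSC and 459, 501, 304 and 579 in MPP3 (log2 -1.49, SE 0.33, limma adjusted p = 0.0145), and the junction gene Jam3 was the other lower member. Without WT LT-HSC 2, WT MPP3 1 or WT MPP3 3, 1 gene was called lower. The chemokine receptor Cxcr4 was not called, with an interval of -0.18 to 2.16.

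Among 24 genes of the TGF-beta and BMP pathways, which restrain stem-cell cycling, 3 were lower and 0 higher. Tgfbr3, a co-receptor, was 1413, 1512, 1505 and 1112 in LT-HSC and 125, 55.3, 135 and 142 in MPP3 (log2 -3.66, SE 0.30, limma adjusted p = 2.04e-06). The signalling receptors Tgfbr1 and Tgfbr2 had intervals of -0.22 to 1.69 and -0.06 to 1.35. The repressor Ski and the co-receptor Eng differed by -1.51 and -0.99, and Eng lost its call in 13 of 22 alternatives. Of 13 tested imprinted genes, expressed from one parental copy, 5 were lower and all 13 had a negative difference (median -2.37). Grb10, an adaptor that damps growth-factor signals, was 801, 1164, 854 and 609 in LT-HSC and 94.8, 77.9, 257 and 68.5 in MPP3 (log2 -2.95, SE 0.39, limma adjusted p = 0.000221). Snrpn, a splicing protein gene, was 105, 65.5, 56.2 and 71.4 and 1.01, 0, 0 and 1.8. The others were Cdkn1c, Ndn and Sgce, and with edgeR on 18 libraries the count was 1. Wnt pathway genes gave 0 calls of 19, NF-kB targets and immediate early genes 0 of 26, and interferon response genes 1 of 24, Ifi27l2a (2.97). The call of Ifi27l2a was lost in 7 of 22 alternatives, among them leaving out WT LT-HSC 1 or 4 or WT MPP3 1, 2 or 3. In the BCL2 family Bid and Pmaip1, which promote cell death, were higher and Bcl2l1, which protects, lower, of 12 tested. Each of the 3 lost its call in at least 5 alternatives. Of 15 Schlafen and GIMAP genes, Gimap3 and Gimap5 were lower, but lost their calls in 9 of 21 and 8 of 22 alternatives, and neither was called without WT LT-HSC 2, WT LT-HSC 3 or WT MPP3 4.

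Of the 10 genes with the smallest p, 8 were lower in MPP3 and 2 higher. Among them H2afy, Apoe, Fhl1, Evc2 and Mpeg1 lie outside the platelet, stem-surface and regulator lists. H2afy, which encodes the histone variant macroH2A1, was 7669, 8088, 7879 and 7797 in LT-HSC and 38838, 33963, 44863 and 38798 in MPP3 (log2 2.31, SE 0.19, limma adjusted p = 2.04e-06), a tight separation at a high level. Apoe, apolipoprotein E, was 11774, 14306, 13984 and 11696 in LT-HSC and 3134, 1753, 2426 and 1366 in MPP3 (log2 -2.64, SE 0.25, limma adjusted p = 9.31e-06). Fhl1, a LIM-domain protein, was 1388, 1269, 1152 and 1024 and 18.2, 41.5, 22.3 and 47.8 (log2 -5.28, SE 0.44, limma adjusted p = 2.04e-06). Evc2, a cilium protein gene, was 105, 231, 88.1 and 145 in LT-HSC with 0 reads in MPP3, at least 187-fold lower. Mpeg1, a pore-forming protein of macrophages, was 0, 0, 13.8 and 0 in LT-HSC and 826, 495, 318 and 643 in MPP3 (log2 8.10, SE 0.77, limma adjusted p = 9.31e-06). The chemokine genes Ccl9 and Ccl3 were among the largest rises: Ccl9 was 0, 18, 79.6 and 25.9 in LT-HSC and 4868, 4155, 2593 and 3795 in MPP3, and Ccl3 was 19.2, 50.3, 83.8 and 29.4 and 2472, 1612, 1964 and 1021 (log2 5.38, SE 1.13, limma adjusted p = 0.00936).

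The KO libraries gave a population difference of the same sign in most of these genes. They enter no WT mean, but they share with WT the estimate of the spread in the limma fit. When each genotype was fitted alone, 729 genes were called in WT and 542 in KO, and the 329 called the same way in both were 45.1% and 60.7% of them. Between 3 KO MPP3 and 3 KO LT-HSC libraries limma called 327 genes, 1.91% of those tested, and 161 to 212 when any 1 of the 6 libraries was left out. Of the 257 genes higher in WT MPP3, 256 had a positive difference in KO and 115 were called higher there, where 0.909% of tested genes were. Of the 424 lower genes, 417 had a negative difference and 143 were called lower, as were 0.997% of tested genes. Together 98.8% had the same sign, against 66.6% of all tested genes, and the 258 shared genes made up 37.9% of the WT calls and 78.9% of the KO calls. The median log2 difference of the higher genes was 3.58 in WT, where they were chosen, and 2.45 in KO. For the lower genes it was -3.23 and -2.08. Mmrn1 was 4643, 5016 and 7787 in KO LT-HSC and 157, 163 and 104 in KO MPP3 (log2 -5.34, limma adjusted p = 1.59e-07), and H2afy was 10028, 8279 and 8332 and 32719, 41831 and 43463 (log2 2.14, limma adjusted p = 5.9e-05).

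**Figure D4:**
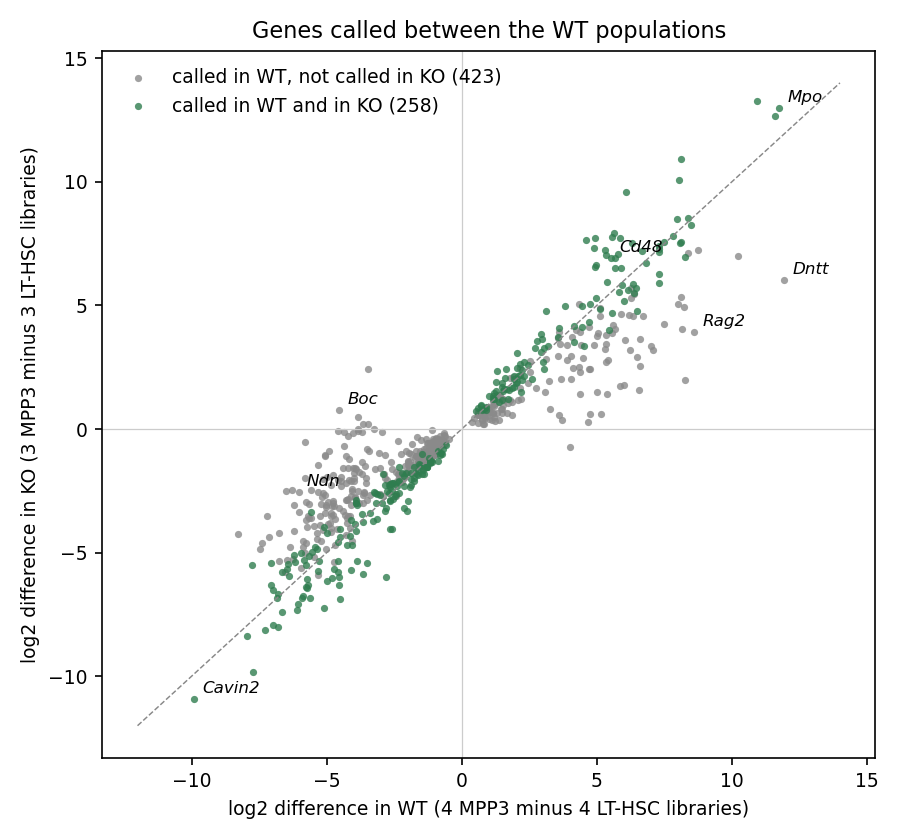
Log2 difference between MPP3 and LT-HSC in KO (vertical, 3 and 3 libraries) against that in WT (horizontal, 4 and 4 libraries) for the 681 genes called in WT, green where also called in KO, with a dashed line of equality. The 258 green points lie along the line, and 384 of the 423 grey points have the same sign and a smaller difference in KO than in WT, as does Dntt. Grey genes were picked for a call in WT and none in KO, which by itself favours a smaller difference in KO.

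Some genes had a smaller and others a larger difference in KO, and limma called no difference between the genotypes. Xist, given above for WT, was 7512, 4123 and 29 in KO LT-HSC and 7194, 2.83 and 7166 in KO MPP3. By this transcript the genotypes were not balanced for sex, and the part of sex in their comparison was not tested. Dntt was 599, 44.8 and 6.35 in KO LT-HSC and 2484, 5038 and 4441 in KO MPP3 (log2 6.02, limma adjusted p = 0.329). The library KO LT-HSC 1, with the 599, also had Ighm at 607, Cd79a at 411 and S100a8 at 13782, and the part of other cells in its Dntt value was not tested. Rag2 was 139, 0 and 3.63 and 187, 123 and 93.6. Ndn was 67.5, 1024 and 1037 in KO LT-HSC, low in KO LT-HSC 1, and 50.4, 65.2 and 108 in KO MPP3. Larger in KO were the differences of Irf8 (log2 7.63 in KO and 4.61 in WT) and Ccl9 (10.05 and 8.04). The test of the difference between the KO and the WT population difference called 0 of 17160 genes with limma, with 357 at an unadjusted p under 0.05 (2.08%), 0 with edgeR and 23 with DESeq2. Boc, a co-receptor of hedgehog proteins, was among the genes with the smallest p in that test: it was 31.1, 67.4, 54.1 and 10.7 in WT LT-HSC and 0, 3.77, 0 and 0 in WT MPP3, and 3.27, 1.76 and 12.7 in KO LT-HSC and 15.7, 0.944 and 23.6 in KO MPP3 (limma adjusted p of the genotype difference = 1).

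The 3 WT MPP2 libraries were unlike each other in some of these genes. Dntt was 0, 11 and 7258 in WT MPP2 1 to 3, and Pf4 was 31814, 21478 and 1374, so that the third library had by far the most Dntt and the least Pf4 of the 3. Ighm was 145, 235 and 176989 in the same libraries, and the B-lineage list summed to 839, 653 and 587675. WT MPP2 3 also had the highest mitochondrial share of all 20 libraries, 5.84%. The part of B cells in the values of WT MPP2 3 was not tested. Taken singly, the libraries lay between the WT LT-HSC and WT MPP3 means in 136, 160 and 196 of the 257 higher genes and in 241, 246 and 314 of the 424 lower genes. The mean of all 3 did so in 215 and 326, and the mean of the first 2 in 169 and 272. Called genes have wide gaps between these means, and the same counts over all tested genes were not made. In 30 of the higher genes the 4 LT-HSC libraries held 0 reads, and in 47 of the lower genes the 4 MPP3 libraries did. By annotation 208 of the higher and 382 of the lower genes were protein-coding. Whether counting used strand was not stated, and reads of 15 higher and 12 lower genes annotated as antisense cannot be told apart from those of the genes they overlap.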

How the data were processed

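RNA was measured in sorted bone-marrow cells, per the labels. The authors used TopHat2 2.1.1, HTSeq 0.11.2 and DESeq (no version given) with GRCm38, per the submitters' processing notes. What the authors deposited is a scaled signal per gene, which by its values is reads over a single factor for the library. Their annotation release, use of strand and filters were not stated in the labels. All values (100%) were, to within 1e-06, whole multiples of the value of 1 read in their library, so reads were recovered, and the 5 HTSeq summary entries were left out. In WT MPP3 1 a read is worth 1.01 and in WT MPP2 2 it is worth 1.00071, too near 1 for an automatic check, so edgeR was also run on the other 18 libraries.

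Of 45706 identifiers 45143 matched a symbol in GENCODE M21. Replicate numbers follow accession order. The main test was limma 3.58.1 (R 4.3.3, intensity trend, robust variances) on log2(value + 1), with 6 group means over 20 libraries and 17160 genes kept by edgeR's expression filter. Fits of all groups share one estimate of the spread. P-values were Benjamini-Hochberg adjusted over all tested genes. On the recovered reads edgeR 4.0.16 called 429 genes and DESeq2 1.42.0 called 896. The added 1 shrinks differences of genes with few reads, and a fold against 0 reads is a lower bound at a floor of 3 counts over the group, for counting error only. Alternatives were other pseudocounts, filters, scalings and tests, a block for the range of library numbers, and fits without single libraries.

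The comparison and its 35 gene lists were chosen with earlier results of these data known, and no list was tested as a set. Named were Hopx, the 20 highest and 20 lowest called genes without overlap and at a mean log2 CPM of 3 or more, the first 3 and up to 6 called genes of each list, the 10 genes of smallest p, and genes of smallest p between genotypes. Fgd5 and Rag1 were named as cell type markers. Car1, Ehd1, Ehd4, Hoxa9, Il15ra, Jam3, Myb, Ngp, Prdm16 and Runx1 were chosen after their values were seen. The limma fit was tested on simulated data, in which only genes at a mean log2 CPM of 3 or more were changed. It called 20.9% of those changed by a log2 of 1, 73.1% at 2 and 97% at 4. Of its 134 calls 7 were false. Each simulated gene had the same mean in all groups before the change and the same spread parameter in all libraries. In the data the median SD of the log2 value was 0.57 in WT MPP3 and 0.44 in WT LT-HSC, and 308 calls lay under a mean log2 CPM of 3. The simulated rates therefore do not carry over to the reported calls. Some genes within the naming rule are not reported here. Promoters were RefSeq sequences on GRCm38.p6.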

Additional observations from a re-analysis of the deposited data

Results flagged for a closer look

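In 250 tests of single libraries against the other 3 of their group, over 130 of the genes named, 30 values (12%) stood apart. The measure was the ratio of their gap to the range on the log2 scale. For independent normal values chance gives about 1 in 20. The genes were partly chosen by these values and share libraries, so that rate is not a valid comparison here. In 7 of the 30 values (Boc, Cav1, Cavin2, Dntt, Il7r, Mpeg1 and Pmaip1) the other 3 libraries had 0 reads, which also fixes the ratio at its highest value. Without these, 23 of 243 stood apart (9.47%). WT LT-HSC 3 accounted for 11 of the 30 values and 8 of the 23. It was high for Bid (1291 normalized counts), Csf2rb (347), Dntt (23.3), Hoxa9 (2586), Il7r (3.18), Itgb7 (192), Mpeg1 (13.8) and Plac8 (3109), and low for Cebpb (35), Gstt1 (375) and Itga2b (751). WT MPP3 2 was high for Boc (3.77), Cd9 (1052), Hlf (2833) and Ly6a (3572), and low for Cebpb (23.9), Tgfbr3 (55.3) and Top2a (3400). Both libraries had high Xist, and their labels carry the library numbers 54 and 52.

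WT MPP3 3 was high for Gata2 (2614) and Itga2b (1824), and low for Ndn (0) and Tek (8.91). WT LT-HSC 2 was low for Mmrn1 (5582) and Serpinb1a (1819) and high for Pmaip1 (2.85). WT LT-HSC 1 was low for Ehd4 (454) and Pgam1 (88.8). The remaining cases were Hopx, low at 0 in WT LT-HSC 4, Cav1, high at 2.02 in WT MPP3 1, and Cavin2, high at 19.8 in WT MPP3 4.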

How the results depend on the processing

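No paired analysis by replicate was made, since the labels carry no replicate numbers and do not say which libraries share an animal. Libraries of both populations do share ranges of library number, and whether these mark animals or batches was not tested. With the range as a block, 758 genes were called in WT, 311 in KO and 0 between genotypes. Against 681 genes as reported, 370 were called in genes at a mean log2 CPM of 3 or more, where fewer genes were tested, 429 with edgeR, 242 with edgeR on 18 libraries and 311 without WT MPP3 2, WT MPP3 3 and WT LT-HSC 2. The last of these settings and edgeR on 18 libraries were added after the data were seen. Without 1 library the count ran from 444 (without WT LT-HSC 4) to 713 (without WT MPP3 2), and other settings gave 594 to 896. Of 896 calls by DESeq2, 404 were higher, 45.1% against 37.7% as reported. In KO, against 327, the count was 197 above that mean, 542 with only the groups compared, 190 with edgeR, 595 with DESeq2, 181 with edgeR on 18 libraries and 161 to 212 without 1 library. The difference between genotypes gave 23 calls with DESeq2. The causes were not tested. Of 118 called genes within the naming rule, 48 kept the call in every alternative run for them, 70 lost it in at least 1 and 0 changed direction. At this depth and spread, a missing call does not show equality.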
